A study of Rattus norvegicus with 24 samples.

Results

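The myocardium of rats 2 weeks after mitral regurgitation (MR) was compared with that of rats 2 weeks after Sham surgery. The comparison takes 9 of the 24 RNA-sequencing libraries of the study, 4 from MR and 5 from Sham, and every gene listed for them, 10433 of the 10797 genes listed at any time point. It is the only comparison of the study in which MR and Sham tissue were taken at the same time after surgery. All rats were of the Sprague-Dawley strain. In MR surgery the chest was opened on the left and a hole was made in a mitral leaflet. Sham surgery left the leaflet whole. The sources used here do not give age, sex or the chamber sampled, and do not state that each library is a separate animal, so p-values measure the spread between these libraries.

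In mitral regurgitation blood leaks back into the left atrium in systole and returns to the ventricle in diastole, so the ventricle works under a volume overload. Such hearts are known to enlarge by lengthening of the cardiomyocytes. Stretched myocardium is known to release natriuretic peptides, and in volume overload the collagen network around the myocytes is known to be remodelled by proteases and mast cells.

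The deposited values are scaled read counts, the reads of a gene divided by 1 factor per library, and 1 unit stood for 17 to 24.4 reads depending on the library. The libraries held 7.69 to 10.4 M reads on the listed genes. All 12 cardiomyocyte markers were listed, among them the α-myosin heavy chain gene Myh6, at 16400 to 24537 units in Sham and 16956 to 21171 in MR. Of the markers of other tissues, 4 of 16 for skeletal muscle and 1 of 8 for airway and lung were listed. Replicates differed from each other far beyond counting noise, with a chi-square per gene of 21.1 to 109. The first principal component took 42.3% of the variance and set MR library 1 apart, at −47.5 against −17.3 to 22.4 for the other 8 libraries. The genes that stood farthest from its group in that library were Masp1 (0.289 units against 12.2 to 18.5 in the other MR libraries), Cited4 (0.482 against 7.99 to 10.9), Zfp61 (28.6 against 4.51 to 4.96), Slc25a11 (9.17 against 48.8 to 81.8) and Eef1a2 (67.5 against 312 to 449). Sham library 3 stood apart in matrix and chemokine genes, and Sham library 4 in haemoglobin genes and atrial markers.

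No gene passed the test across all genes. With limma on log2(value + 1), a Benjamini-Hochberg adjusted p under 0.05 was reached by 0 of 10173 tested genes (0%), and the lowest adjusted p was 0.313. Without adjustment, 556 genes had a p under 0.05, of which 242 were higher and 314 lower in MR. edgeR on the read counts recovered from the values also called 0 genes and had 541 at an unadjusted p under 0.05. DESeq2 on the same counts called 47 genes higher (0.462% of those tested) and 10 lower (0.0983%). The log2 difference, the mean log2(value + 1) of MR minus that of Sham, was above 0 for 37.8% of genes and its median was −0.07. In 96 genes (0.944%) every MR library was above every Sham library, and in 124 (1.22%) every MR library was below every Sham library. The direction of that split depends on the scaling: after rescaling the libraries by the median ratio of their genes the counts were 128 higher and 76 lower, so that 62.7% instead of 43.6% of the separated genes were higher in MR. Below, a gene is called separated when its MR and Sham libraries do not overlap. No gene that is named below passed the limma test.

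The genes of cell division made up the group with the highest median. Of 80 genes on a list of mitosis and chromosome segregation, 63 were listed and 55 were tested. Their median log2 difference was 0.88, against −0.07 over all tested genes, and 52 of the 55 were above 0. Every MR library lay above every Sham library in 20 of the 55, where 0.944% of all tested genes did so. The 26 members that DESeq2 called higher were 55.3% of its 47 calls in that direction. The list was chosen with earlier results of these data known, so that share is not independent support for it. Many of these genes were near the filter on low values, and some passed it only through the MR libraries, where they were high. Among the 40 members whose Sham libraries alone would have passed, 37 were above 0, the median was 0.88 and 15 were separated. Over all 9974 genes whose Sham libraries alone would have passed, 78 were separated and higher in MR. The DESeq2 calls were not counted among the 40. The summed value of the 55 members was 245 to 431 units in MR and 159 to 241 in Sham.

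Kif22 encodes a kinesin that pushes chromosomes towards the spindle equator, and it had the lowest p among the separated genes that were higher in MR and had a mean of at least 4.63 units. Its values were 9.22, 9.58, 6.99 and 12.9 units in MR libraries 1, 3, 4 and 5, and 1.65, 6.03, 3.06, 2.71 and 2.12 in Sham libraries 1 to 5. All 4 MR values lay above the highest Sham value, that of Sham library 2. The means were 9.68 ± 2.45 (SD, n = 4) and 3.12 ± 1.72 (SD, n = 5), a ratio of 3.11, and the log2 difference was 1.43 (SE 0.26, limma adjusted p = 0.313, and 0.00313 to 0.782 over the alternative fits).

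Top2a, the topoisomerase that untangles sister chromatids, was at 5.74, 10.5, 5.39 and 10.6 units in MR and at 0.944, 2.62, 2.69, 2.49 and 3.41 in Sham. The groups were separated and the mean was 3.31 times as high in MR. Mki67, whose protein coats mitotic chromosomes and serves as the standard proliferation marker, was at 20.9, 24.3, 12.1 and 31.0 units in MR and at 4.07, 10.2, 8.71, 9.92 and 6.52 in Sham. MR library 4 was the lowest of the MR group in both genes, and still lay above all Sham libraries. Iqgap3, a scaffold protein of proliferating cells that is on neither of the division lists, was at 10.7, 15.3, 5.14 and 12.5 units in MR against 1.0, 4.19, 4.48, 2.83 and 2.95 in Sham, a ratio of means of 3.53. The log2 differences of these genes were 1.39 (SE 0.27), 1.36 (SE 0.28) and 1.54 (SE 0.32), each at a limma adjusted p of 0.313. Without any 1 library they ranged from 1.18 to 1.83 over the 3 genes.

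The promoters of these 4 genes are shown because all 4 were separated and higher in MR and the windows share letters. Each is the 150 bases before the annotated start in the RefSeq table for build GRCr8, 5′ to 3′ on the strand of the gene. Capitals mark TTTGAA, the core of the cell cycle homology region, and CCAAT, the core of the NF-Y box, each on either strand (TTCAAA and ATTGG on the other strand), and in Mki67 a pair of these overlaps.
Kif22, chr1:191080879-191081028, minus strand: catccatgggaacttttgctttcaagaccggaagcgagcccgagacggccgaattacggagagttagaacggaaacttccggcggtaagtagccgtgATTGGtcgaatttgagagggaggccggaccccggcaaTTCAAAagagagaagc
Top2a, chr10:84473094-84473243, minus strand: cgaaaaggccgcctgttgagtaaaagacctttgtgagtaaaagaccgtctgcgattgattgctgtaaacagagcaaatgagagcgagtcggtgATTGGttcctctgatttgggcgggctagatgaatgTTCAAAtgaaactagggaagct
Mki67, chr1:199952594-199952743, minus strand: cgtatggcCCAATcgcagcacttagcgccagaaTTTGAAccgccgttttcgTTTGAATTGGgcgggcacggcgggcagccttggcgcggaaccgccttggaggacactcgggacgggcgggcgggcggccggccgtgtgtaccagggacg
Iqgap3, chr2:175839851-175840000, plus strand: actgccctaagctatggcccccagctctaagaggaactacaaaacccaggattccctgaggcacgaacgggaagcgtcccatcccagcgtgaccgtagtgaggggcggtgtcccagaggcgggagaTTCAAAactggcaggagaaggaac
All 4 windows hold TTTGAA on one strand or the other, and all but that of Iqgap3 hold CCAAT. In the 250 bases before the start, TTTGAA was found in 26 of the 47 tested list members with an entry (55.3%), against 9.48% of the 7998 tested genes with an entry and 16% of all 27457 promoters of the table. CCAAT was found in 34 of the 47 (72.3%), against 35.8% of the tested genes and 34.3% of all promoters. Among the 15 separated list members with an entry, TTTGAA was found in 9 (60%) and CCAAT in 11 (73.3%), near the shares of the whole list. The shares thus describe a list of mitosis genes and not the difference between MR and Sham. All of these are matches of letters, not binding sites.

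Cenpf, a kinetochore protein of late G2 and mitosis, was at 4.97, 8.11, 4.24 and 10.7 units in MR and 0.649, 2.12, 1.58, 1.94 and 2.38 in Sham, and its log2 difference was 1.52 (SE 0.27). Kif20a, a kinesin of the cleavage furrow, was at 6.13, 7.70, 4.34 and 7.36 units in MR and 1.24, 3.04, 2.22, 1.44 and 2.53 in Sham. Both were separated. Cdk1, the mitotic kinase, and Prc1, which bundles the microtubules of the spindle midzone, were named after their values were seen. Cdk1 was at 5.64, 7.0, 2.25 and 10.1 units in MR against 0.413 to 2.69 in Sham, and Prc1 at 11.1, 15.6, 4.94 and 17.6 against 1.30 to 5.17. In both of them MR library 4 fell within the Sham range and the other 3 MR libraries lay above it. The 3 members below 0 were Cks1b, Cdc25b and Ube2s, which are among the 5 members with a mean of 10 units or more. Over those 5 members the median was −0.0009, so the level of the list rests on genes of low read count.

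**Figure D1:**
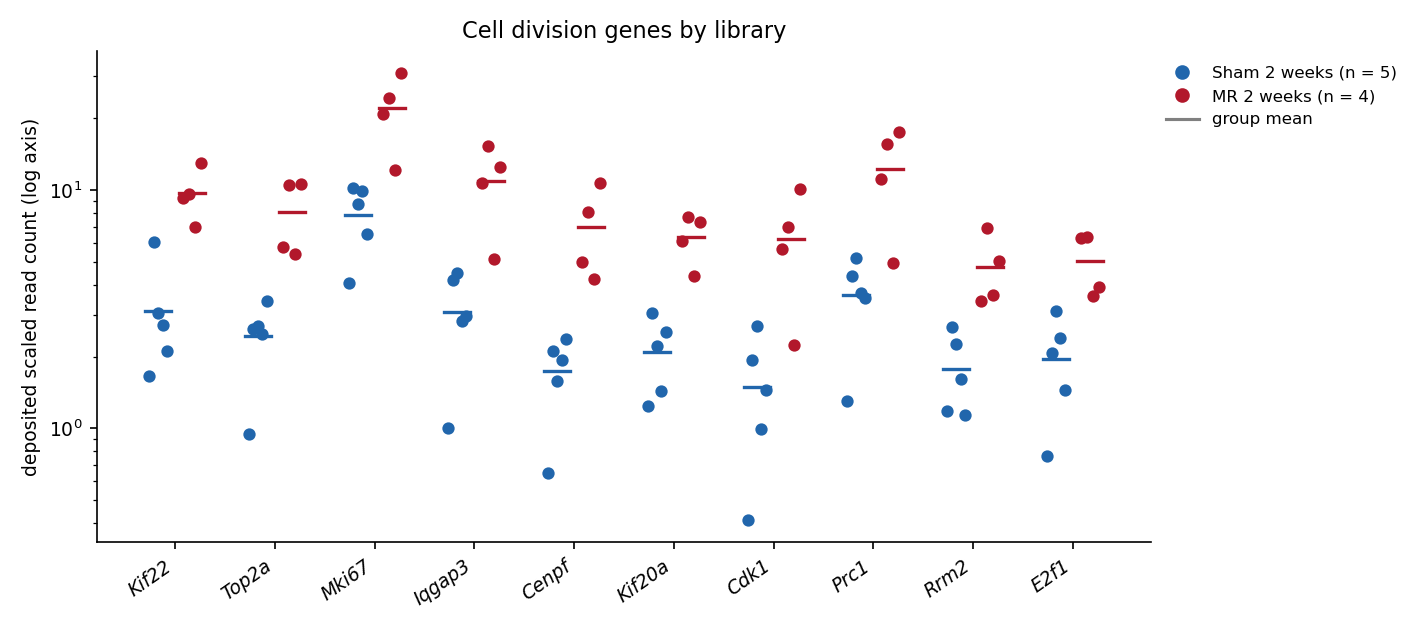
Scaled read count (log axis) of 10 cell division genes in each of the 5 Sham and 4 MR libraries at 2 weeks, with a bar at each group mean. The 4 MR values of Kif22 sit between 6.99 and 12.9, above all Sham values, while 1 MR value of Cdk1 and 1 of Prc1 lie within the Sham range.

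The DNA replication list was less uniform. Of its 57 genes 41 were tested, 33 were above 0 and the median was 0.20, which was 0.13 without MR library 1. Separated members were 6 higher and 1 lower, against 0.944% and 1.22% of all tested genes. Among the 38 members whose Sham libraries alone would have passed the filter, 30 were above 0, the median was 0.19 and 4 were separated and higher. Rrm2, the ribonucleotide reductase subunit made in S phase, was at 3.43, 6.92, 3.64 and 5.02 units in MR against 1.18, 2.67, 2.27, 1.61 and 1.14 in Sham (log2 difference 1.05, SE 0.23). E2f1, the factor that opens the S phase programme, was at 6.32, 6.35, 3.59 and 3.91 units in MR against 0.767 to 3.11 in Sham, and E2f7, a repressor of the same family, at 1.43 to 2.05 against 0.528 to 0.885. All 3 genes were separated, but E2f7, with a Sham mean of 0.618 units, passed the filter on low values only through the MR libraries. Ccnd1, cyclin D1 of G1, overlapped between the groups, with 128, 124, 91.4 and 129 units in MR and 71.4, 93.1, 111, 126 and 66.1 in Sham (log2 difference 0.37, SE 0.21, limma adjusted p = 0.84). In bulk tissue, more cells of a type and more RNA per cell cannot be told apart, and these libraries do not show which cells carried the division genes.

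Lmnb2 and Tuba1c, on neither of the division lists, stood with these 4 among the 10 separated genes with the lowest p that were higher in MR, at the same minimum mean. Lmnb2, a lamin of the nuclear envelope, was at 10.4, 9.42, 6.04 and 7.91 units in MR and 3.88 to 5.66 in Sham. Tuba1c, an α-tubulin, was at 19.5, 23.4, 20.9 and 23.3 units in MR and 8.43 to 17.9 in Sham. Reads of Tuba1c are uncertain because the α-tubulin genes are near copies of each other. The actin and tubulin cytoskeleton list had 36 of 53 members above 0 and a median of 0.11, which was 0.04 without Sham library 5 and 0.18 without Sham library 3. Its separated members were 2, both higher in MR, where 0.944% of all tested genes were separated in that direction. They were Tuba1c and the β-tubulin gene Tubb5, named after its values were seen. Tubb5 was at 190.3 to 215 units in MR and 137 to 182 in Sham (log2 difference 0.31, SE 0.14, limma adjusted p = 0.84).

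Receptors and signalling genes of growth and inflammation filled the rest of those 10. Jak2, the kinase behind many cytokine receptors, was at 8.93, 9.75, 11.4 and 9.95 units in MR and 7.73, 4.88, 6.12, 5.43 and 5.53 in Sham. Its log2 difference was 0.68 (SE 0.15, limma adjusted p = 0.313). Csf2rb, the β chain shared by the receptors for GM-CSF, interleukin 3 and interleukin 5, was at 6.90, 8.72, 8.63 and 4.63 units in MR and 3.49 to 4.37 in Sham. All 4 MR libraries lay above Sham, with MR library 5 the lowest. F2rl1, the protease-activated receptor that tryptase and trypsin cleave, was at 13.2, 10.6, 11.3 and 12.7 units in MR and 4.91 to 8.81 in Sham (log2 difference 0.78, SE 0.17). Pik3r1, the regulatory subunit of PI3 kinase, was at 17.6, 13, 12.3 and 8.04 units in MR and 5.60 to 7.08 in Sham (log2 difference 0.82, SE 0.19).

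Socs3, the inhibitor that cytokine signalling through JAK and STAT induces, had 15.8, 19.5, 21.0 and 6.0 units in MR and 5.84, 6.58, 5.07, 3.93 and 2.43 in Sham. It was 1.45 higher in log2 (SE 0.33, limma adjusted p = 0.313). MR library 5 lay within the Sham range, so the groups overlapped. Fosl2, an AP-1 factor, was separated, at 4.89 to 10.1 units in MR and 3.16 to 4.19 in Sham, whereas Fosb, another, pointed the other way with 5.36, 6.51, 16.4 and 2.98 units in MR and 9.03, 22.0, 36.4, 21.4 and 9.26 in Sham.

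On the growth factor side, Igfbp3 had the largest log2 difference in size among the 10 separated genes with the lowest p that were lower in MR. This protein carries insulin-like growth factors in blood and tissue fluid. It was at 12.5, 20.4, 22.5 and 20.0 units in MR and 50.1, 70.1, 38.5, 41.4 and 26.3 in Sham. The highest MR value lay below the lowest Sham value, that of Sham library 5. The means were 18.9 ± 4.34 (SD, n = 4) and 45.3 ± 16.3 (SD, n = 5), and the log2 difference was −1.18 (SE 0.25, limma adjusted p = 0.313, and 0.00845 to 0.795 over the alternative fits). Igf1 itself overlapped, at 5.74, 9.38, 13.4 and 5.32 units in MR and 5.25 to 9.66 in Sham, and without MR library 4 its log2 difference went from 0.21 to −0.02.

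The angiotensin, endothelin and aldosterone list had 10 of its 15 tested members above 0, a median of 0.13 and no separated member. Its 4 members with the lowest p were all higher in MR. Ace, the angiotensin-converting enzyme, was at 7.62, 11.5, 12.8 and 10.6 units in MR and 10.1, 7.87, 4.75, 3.55 and 4.86 in Sham (log2 difference 0.74, SE 0.25, limma adjusted p = 0.764). Bdkrb2, the bradykinin receptor, was at 6.51, 6.59, 11.9 and 8.38 units in MR and 4.13, 6.63, 4.01, 3.66 and 2.33 in Sham. Ednrb, the endothelin B receptor, was at 5.36, 10.3, 7.39 and 10.0 units in MR and 2.16 to 7.32 in Sham. In Bdkrb2 only Sham library 2 reached into the MR range. The sign of the list's median depends on MR library 3, without which it was −0.01.

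Cma1, a mast cell chymase, is both on that list and among the mast cell markers. It was at 7.72, 3.73, 1.85 and 2.98 units in MR and 1.42, 1.61, 2.11, 0.886 and 1.5 in Sham, and the log2 difference was 0.91 (SE 0.28, limma adjusted p = 0.648). MR library 1 was the highest and MR library 4 lay within the Sham range. Of the 13 mast cell markers 7 were tested, 6 were above 0 and the median was 0.66. Tpsab1, a tryptase, was separated, at 7.33, 2.99, 2.15 and 3.95 units in MR and 1.43 to 2.12 in Sham. The stem cell factor receptor Kit was at 3.39 to 6.68 units in MR and 1.53 to 4.03 in Sham, and Cpa3, the mast cell carboxypeptidase, at 0.848 to 3.47 against 0.354 to 2.16. Without MR library 1 the median of the list was 0.51, and over the members with a mean of 10 units or more it was 0.02.

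Matrix genes were higher in most members but overlapped in all of them. Of 58 genes on the list of fibrillar collagens and fibroblast matrix, 51 were tested, 40 were above 0 and the median was 0.26. None was separated. The level of a list is the mean over members of log2(value + 1) minus the mean of the gene over the 9 libraries. From it the median of the same quantity over all tested genes in that library was subtracted. The level of this list was −0.25, 0.57, 0.07 and 0.33 in MR libraries 1, 3, 4 and 5 and −0.45, −0.23, 0.70, −0.21 and −0.53 in Sham. Sham library 3 was thus the highest of all 9. Without Sham library 3 the median was 0.38, without MR library 1 it was 0.39, and without MR library 3 it was 0.13.

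Fn1, fibronectin of the provisional matrix, was at 32.7, 106, 78.2 and 47.7 units in MR and 23.8, 20.9, 124, 22.2 and 15.3 in Sham. Apart from Sham library 3 every Sham value lay below every MR value. The log2 difference was 1.01 (SE 0.52, limma adjusted p = 0.84), and 1.52 without Sham library 3. Tnc, tenascin C of healing tissue, had the same shape, with 1.30, 3.77, 11.4 and 1.15 units in MR and 0.118, 0.552, 6.12, 0.499 and 0.207 in Sham. Timp1, an inhibitor of metalloproteases, was at 8.93, 22.3, 21.6 and 8.42 units in MR and 5.31, 6.54, 15.7, 4.60 and 4.09 in Sham (log2 difference 1.0, SE 0.37, limma adjusted p = 0.821). In these 3 genes only Sham library 3 reached the MR range.

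The fibrillar collagens did not follow that shape as closely. Col1a1 was at 102, 558, 351 and 276 units in MR and 125, 144, 617, 168 and 156 in Sham, and Col3a1 at 353, 1351, 830 and 860 in MR and 386, 463, 1197, 506 and 470 in Sham. MR library 1 was below all Sham libraries in both, and Sham library 3 was above 3 of the 4 MR libraries in Col3a1 and above all of them in Col1a1. The log2 difference of both was 0.47, with an SE of 0.51 for Col1a1 and 0.39 for Col3a1. Without Sham library 3 they were 0.88 and 0.75. Postn, periostin of activated fibroblasts, was at 9.99, 46.5, 15 and 16.9 units in MR and 4.01, 6.35, 79.9, 12.7 and 2.22 in Sham. Plod2, which hydroxylates collagen for stable cross-links, was at 13.1 to 22.9 units in MR and 8.28 to 16.1 in Sham, and the proteoglycan Vcan at 17.2 to 24.5 against 8.28 to 17.6.

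Among the proteases, Adamts4, an aggrecanase, was at 6.61, 18.8, 16.7 and 3.83 units in MR and 2.42, 5.57, 9.66, 1.11 and 2.38 in Sham (log2 difference 1.27, SE 0.49, limma adjusted p = 0.84). Mmp2, gelatinase A, was at 29.1, 97.1, 42.2 and 78.3 units in MR and 66.5 to 99.8 in Sham, and the membrane protease Mmp14 at 4.97, 17.7, 17.4 and 15.1 against 8.28 to 18.7. Tgfb1, the growth factor that drives matrix synthesis, lay within 20.6 to 25.4 units in MR and within 16.2 to 28.9 in Sham, and without Sham library 5 its log2 difference went from 0.11 to −0.002. The myofibroblast markers had 9 of 10 tested members above 0 and a median of 0.32, which was 0.49 without Sham library 3 and 0.18 without MR library 3. The basement membrane list had 10 of 12 above 0 and a median of 0.14. Sham library 3 had the highest myofibroblast level, 1.05, and MR library 3 the next, 0.62. Genes far from the other Sham libraries in Sham library 3 were Postn, Ptx3 (22.3 units against 0.609 to 2.99), Fn1 and the chemokine Ccl7 (10.7 against 0.569 to 1.38). The part of these library differences in the group result was not tested beyond leaving each library out.

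**Figure D2:**
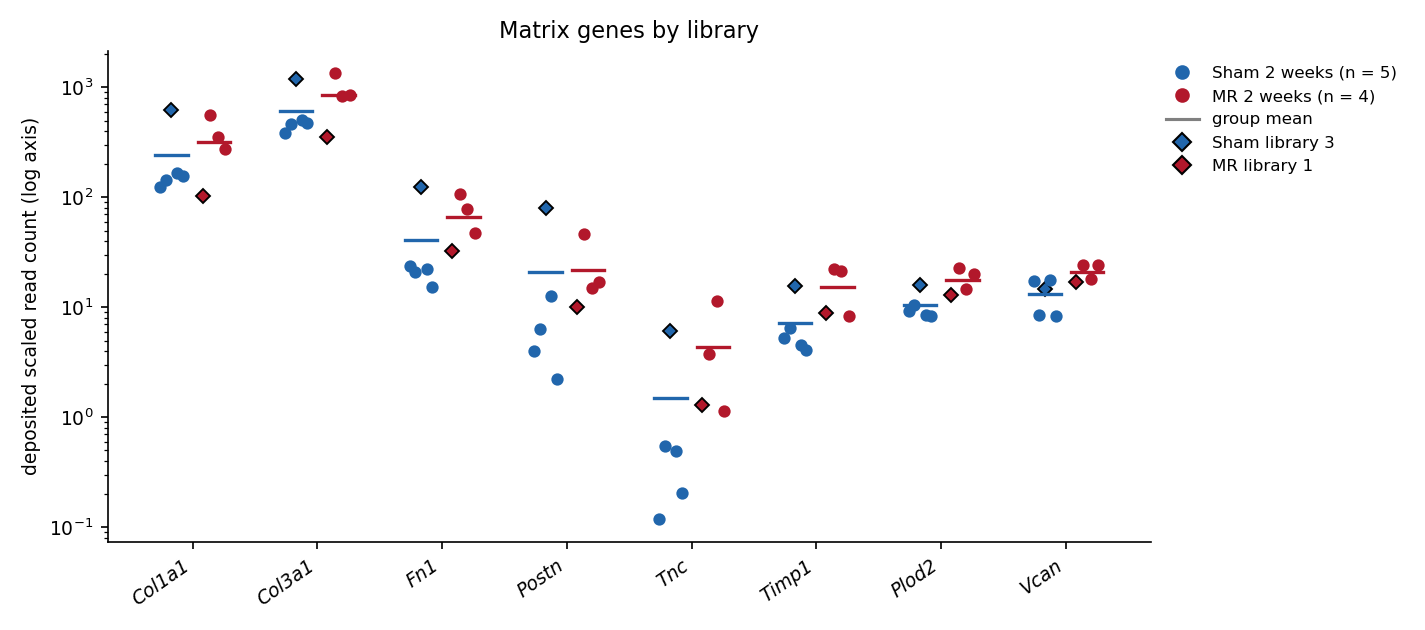
Scaled read count (log axis) of 8 matrix genes in each Sham and MR library at 2 weeks, with a bar at each group mean and diamonds for Sham library 3 and MR library 1. Sham library 3 is the highest Sham library in all of them but Vcan, and MR library 1 is below all Sham libraries in Col1a1 and Col3a1.

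Gsn, gelsolin, which cuts actin filaments and is abundant in cardiac fibroblasts, ran against the matrix genes. It was at 423, 600, 555 and 827 units in MR and 1441, 1120, 788, 1350 and 1082 in Sham. MR library 5 overlapped with Sham library 3 and the other 3 MR libraries lay below all Sham libraries. The log2 difference was −0.95 (SE 0.23, limma adjusted p = 0.376). The fibroblast marker list had 6 of 15 members above 0, a median of −0.07 and no separated member. Its member Cxcl14, a chemokine, was at 2.32, 0.696, 0.599 and 0.680 units in MR and 1.24 to 4.46 in Sham (log2 difference −0.97, SE 0.29).

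Macrophage markers were mostly higher in MR and lymphocyte markers mostly lower. Of 34 macrophage and monocyte markers 26 were tested, 21 were above 0 and the median was 0.29, which was 0.45 without Sham library 3 and 0.14 without MR library 3. Mrc1, the mannose receptor of resident macrophages, was at 17.9, 21.1, 12.7 and 18.2 units in MR and 10.4, 6.49, 12.8, 8.31 and 7.09 in Sham. MR library 4 lay just within the Sham range, below Sham library 3. The log2 difference was 0.90 (SE 0.21, limma adjusted p = 0.313). Lyve1, carried by resident macrophages and lymphatic vessels, was at 23.4, 27.9, 28.8 and 19.6 units in MR and 14, 9.57, 22.2, 12.9 and 11.1 in Sham. Cd14, a co-receptor for lipopolysaccharide, was separated, at 5.09 to 6.76 units in MR and 2.39 to 4.60 in Sham, while the scavenger receptor Cd163 overlapped, at 3.89 to 6.68 against 1.24 to 4.22. The lymphatic markers had all 6 tested members above 0 and a median of 0.41, which was 0.24 without Sham library 1 and 0.69 without Sham library 3. Flt4, the lymphatic growth factor receptor, was at 21.1, 12.8, 16 and 13.2 units in MR and 6.21 to 14.8 in Sham.

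Of 23 markers of T, B and NK lymphocytes 10 were tested, 2 were above 0 and the median was −0.39, which was −0.25 without Sham library 4. Ccl5, a chemokine of T and NK cells, was at 4.68, 3.81, 4.54 and 2.08 units in MR and 5.55, 7.64, 4.64, 11.1 and 6.36 in Sham. Lck, the T cell receptor kinase, was at 1.02 to 1.55 units in MR and 1.30 to 3.77 in Sham. Coro1a, the leukocyte coronin, was at 3.18, 8.11, 8.08 and 7.82 units in MR and 7.49 to 14.8 in Sham. The log2 differences were −0.74, −0.59 and −0.63, none separated. Of 12 neutrophil markers 3 were tested.

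The interferon response list had 34 of 46 members above 0 at a median of 0.06, which was 0.04 without Sham library 1 and 0.11 without Sham library 3. Its 3 separated members were all higher in MR, where 0.944% of all tested genes were separated in that direction. Mx2, an antiviral GTPase, was at 29.4 to 48.0 units in MR and 16 to 28.4 in Sham, the helicase Dhx58 at 5.21 to 7.58 against 3.48 to 5.11, and the 2′-5′ oligoadenylate synthetase Oas1a at 4.55 to 6.03 against 2.65 to 4.45. Their log2 differences were 0.52, 0.41 and 0.44. On the vascular side 15 of 19 endothelial markers were tested, 6 were above 0, the median was −0.09 and none was separated. Outside that list, the leukocyte adhesion receptor Selp was separated and higher, at 3.09 to 5.24 units in MR and 0.828 to 2.48 in Sham. Esm1, a proteoglycan secreted by endothelial tip cells, was separated and lower, at 3.97 to 7.29 units in MR and 7.92 to 12.7 in Sham. Separated genes made up 0.944% (higher) and 1.22% (lower) of all tested genes.

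Genes of mitochondrial energy production were lower in MR in nearly all members, by small amounts. Of 44 tested genes of fatty acid uptake and oxidation, 5 were above 0 and the median was −0.41. For pyruvate dehydrogenase and the citric acid cycle these were 2 of 34 and −0.36, for respiratory complex I 1 of 42 and −0.31, for complexes III, IV and ATP synthase 1 of 45 and −0.36, and for the mitochondrial ribosome 0 of 68 and −0.27. Over all tested genes 37.8% were above 0. Separated members that were lower in MR numbered 2, 0, 1, 6 and 3 in these 5 lists, and no member was separated and higher, where 1.22% of all tested genes were separated and lower. For complex I, 1 member of 42 is too few to set against the share over all genes. The values for complexes III, IV and ATP synthase summed to 15260 to 21670 units in MR and 21090 to 29520 in Sham. The levels of that list were −0.44, −0.16, −0.03 and −0.01 in MR libraries 1, 3, 4 and 5 and 0.25, 0.25, 0.02, 0.02 and 0.10 in Sham libraries 1 to 5. In level the groups did not overlap, by a margin of a few hundredths, while the sums overlapped.

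MR library 1 was the lowest of all 9 libraries in each of these 5 lists. Without it the medians were −0.22 for fatty acid oxidation, −0.12 for the citric acid cycle, −0.21 for complex I, −0.26 for complexes III, IV and ATP synthase and −0.17 for the mitochondrial ribosome. Without Sham library 3 they were −0.54, −0.53, −0.35, −0.40 and −0.36. Under the median-ratio scaling they were −0.34, −0.29, −0.24, −0.29 and −0.20. The markers of working cardiomyocytes were low beside them, with 0 of 12 above 0, a median of −0.27 and, without MR library 1, −0.16. Their summed value was 45850 to 58340 units in MR and 51770 to 72530 in Sham. The totals over all listed genes were 394800 to 442400 units in MR and 405800 to 526900 in Sham. No sum of a list given here was corrected for these totals. How far the energy genes follow the share of cardiomyocyte RNA was not tested.

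Atp5g3, a subunit of the ATP synthase rotor, was at 521, 601, 640 and 680 units in MR and 919, 1114, 805, 754 and 792 in Sham. Cox6c, of cytochrome c oxidase, was at 402, 435, 500 and 476 units in MR and 693, 741, 591, 578 and 548 in Sham. Ndufv1, a complex I subunit that binds NADH, was at 403, 539, 502 and 518 units in MR and 837, 803, 565, 592 and 711 in Sham. All 3 were separated, with log2 differences of −0.51 (SE 0.18), −0.47 (SE 0.16) and −0.51 (SE 0.18) and limma adjusted p of 0.764, 0.764 and 0.793. Eci1, an isomerase of unsaturated fatty acid oxidation, was at 103, 135, 165 and 151 units in MR and 183 to 231 in Sham. Cpt1b, which brings long-chain fatty acids into the muscle mitochondrion, overlapped through Sham library 3, with 170, 187, 161 and 183 units in MR and 273, 224, 159, 233 and 263 in Sham.

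Gstz1 and Bckdha, both named by the lowest p among separated genes, encode enzymes of amino acid breakdown, for which no list was tested. Gstz1, an enzyme of tyrosine breakdown, had the lowest p of the separated genes that were lower in MR. It was at 21.4, 17.4, 26.6 and 15.7 units in MR and 38.7, 36.1, 31.1, 39.5 and 36.1 in Sham. The means were 20.3 ± 4.86 (SD, n = 4) and 36.3 ± 3.27 (SD, n = 5), and the log2 difference was −0.83 (SE 0.17, limma adjusted p = 0.313, and 0.0217 to 0.795 over the alternative fits). Bckdha, of the complex that breaks down branched-chain amino acids, was at 93.1, 129, 102 and 94.6 units in MR and 196, 197, 152, 136 and 215 in Sham (log2 difference −0.76, SE 0.18). MR library 5 was the lowest in Gstz1 and MR library 1 in Bckdha.

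The PGC-1 coactivators of mitochondrial genes overlapped between the groups. Ppargc1a, the coactivator PGC-1α, was at 6.85, 4.30, 7.49 and 4.38 units in MR and 5.49, 3.5, 2.69, 2.88 and 4.29 in Sham (log2 difference 0.50, SE 0.22, limma adjusted p = 0.84). Its relative Ppargc1b was at 17.7, 17, 21.6 and 12.4 units in MR and 8.55, 7.87, 8.13, 8.98 and 18 in Sham, with Sham library 5 alone in the MR range. Of the glucose genes, 7 of 38 were above 0, with no separated member and a median of −0.21, which was −0.10 without MR library 1 and −0.31 without Sham library 3. Slc2a4, the insulin-responsive glucose transporter, was at 175 to 205 units in MR and 160 to 322 in Sham. Pdk4, which holds pyruvate dehydrogenase inactive, was at 31.0, 9.09, 16.8 and 14.9 units in MR and 7.28 to 36.5 in Sham, and the sign of its log2 difference, −0.12, turned without MR library 3 (0.14), without Sham library 1 (0.12) or without Sham library 2 (0.03).

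**Figure D3:**
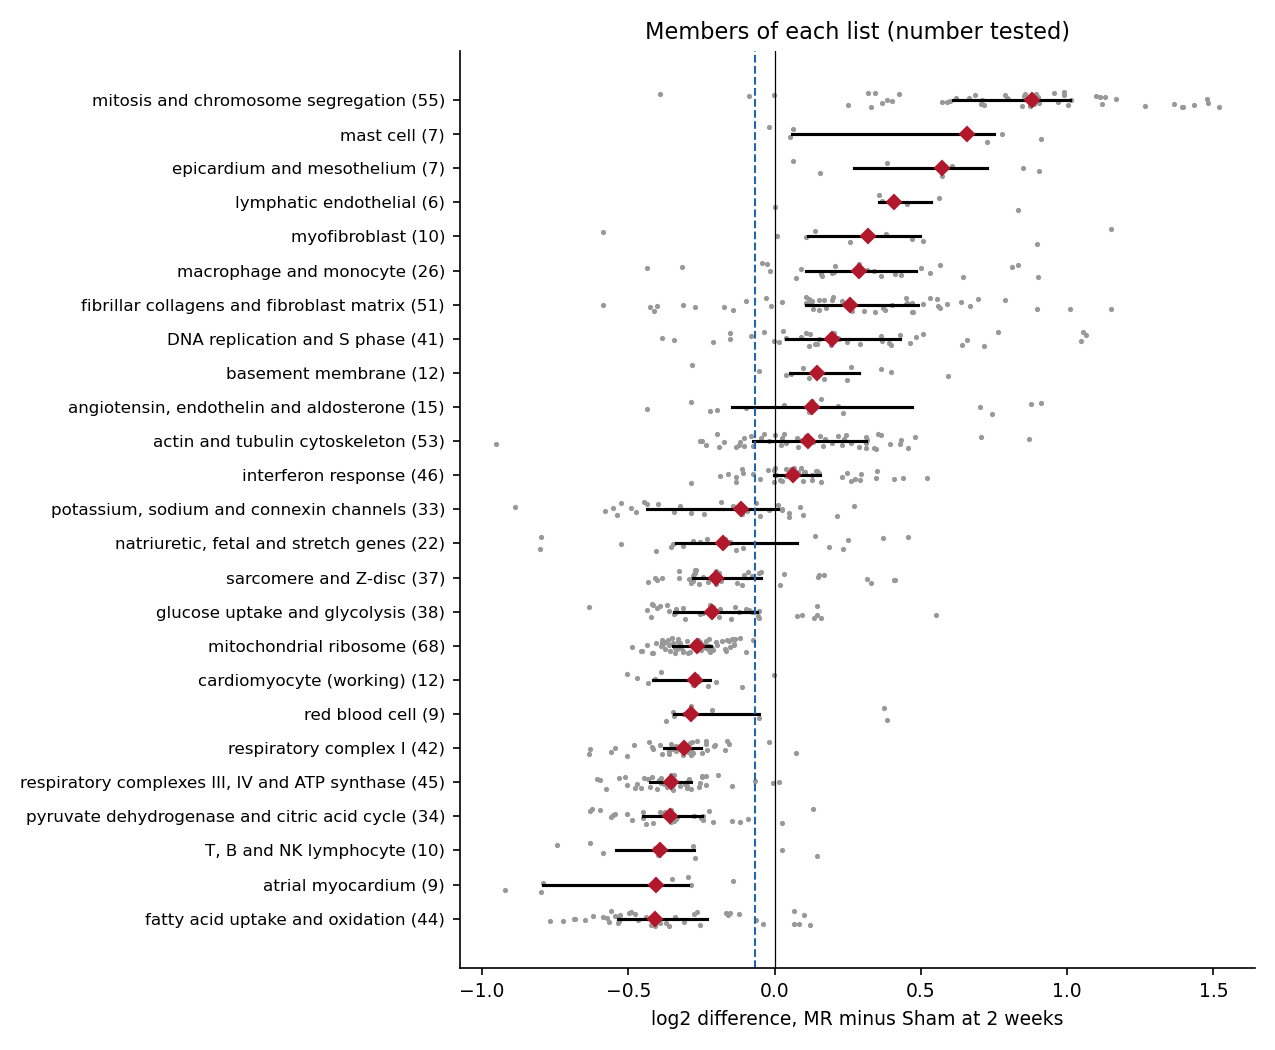
Log2 difference, MR minus Sham at 2 weeks, of each tested member of 25 lists (grey points), with the median (diamond) and the quartiles (bar) of each list. The dashed line is the median of all tested genes, −0.07. The mitosis list lies highest, at 0.88, and the lists of mitochondrial energy genes lie between −0.27 and −0.41.

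Markers of myocardial stretch and the fetal gene programme did not separate the groups. Nppa, the atrial natriuretic peptide gene, was at 160, 86.5, 35.3 and 1196 units in MR and 295, 220, 90.4, 547 and 120 in Sham. MR library 5 held the highest value of all 9 and MR library 4 the lowest. The log2 difference was −0.41 (SE 0.82, limma adjusted p = 0.937), and its sign turned in edgeR (0.61), in DESeq2 (0.62) and without MR library 4 (0.30). Nppb, the B-type peptide gene, was at 176, 237, 207 and 415 units in MR and 416, 245, 98.8, 421 and 326 in Sham, a log2 difference of −0.13 (SE 0.39) whose sign also turned without MR library 1 (0.02), Sham library 1 (0.02) or Sham library 4 (0.03). Myh7, the β-myosin heavy chain of the fetal and overloaded ventricle, was at 3177, 6312, 4498 and 7898 units in MR and 5139, 9821, 8335, 15913 and 8867 in Sham (log2 difference −0.80, SE 0.35, limma adjusted p = 0.84). Acta1, skeletal α-actin, was at 470, 844, 420 and 1567 units in MR and 462 to 871 in Sham. MR library 5 was the highest MR library in Nppa, Nppb, Myh7 and Acta1. The list of natriuretic, fetal and stretch genes had 6 of 22 members above 0 and a median of −0.18, which was −0.07 without MR library 1, −0.31 without Sham library 3 and −0.32 without MR library 5. Ankrd1, a stretch-induced ankyrin repeat protein, was at 2057 to 4254 units in MR and 1899 to 3943 in Sham, and the sign of its log2 difference, −0.11, turned with library weights (0.01), without MR library 4 (0.02) and without Sham library 4 (0.003).

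The sarcomere and Z-disc list had 9 of 37 members above 0 and a median of −0.20, and −0.12 without MR library 1. Its 1 separated member was Tpm3, a tropomyosin, at 54.5 to 70.2 units in MR and 40.1 to 52.3 in Sham. Of all tested genes, 0.944% were separated and higher like Tpm3. Myh6 had a log2 difference of −0.11 (SE 0.25). The calcium cycling list had 12 of 35 members above 0 and a median of −0.03, which was 0.02 under the median-ratio scaling. In it 1 member was separated and higher and 2 were separated and lower, where 0.944% and 1.22% of all tested genes were. Atp2b4, a calcium pump of the plasma membrane, was at 5.10 to 6.99 units in MR and 2.36 to 4.71 in Sham. Ppp1r1a, an inhibitor of protein phosphatase 1, was at 5.21 to 9.53 units in MR and 9.76 to 12.9 in Sham. S100a1, a calcium sensor that supports the ryanodine receptor and SERCA2a, was the other lower member. It was at 21.1, 22.2, 24.8 and 24.6 units in MR and 40.5, 38.2, 31.3, 40.2 and 28.3 in Sham, and the log2 difference was −0.59 (SE 0.15, limma adjusted p = 0.428). Atp2a2, the SERCA2a pump itself, overlapped, with 1687, 3935, 2730 and 3468 units in MR and 5316, 2302, 1810, 4360 and 5198 in Sham. Pln, the inhibitor of that pump, was at 1031, 1661, 1334 and 1668 units in MR and 2529, 1690, 1335, 1964 and 1957 in Sham. Ryr2, the calcium release channel, was at 413 to 498 units in MR and 319 to 630 in Sham. Its log2 difference was −0.003 and was above 0 under the median-ratio scaling, 0.07. The interval of 1 SE, 0.20, spans both signs.

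The potassium, sodium and connexin channel list had 9 of 33 members above 0 and no separated member. Its median was −0.12, and it was −0.25 without Sham library 3 and −0.06 without Sham library 5. Hdac4, a histone deacetylase that restrains MEF2, was separated, at 3.03 to 3.71 units in MR and 1.83 to 2.54 in Sham (log2 difference 0.52, SE 0.15, limma adjusted p = 0.564). It is on the hypertrophy signalling list, where 11 of 36 tested members were above 0 and the median was −0.045. That list had 1 separated member in each direction, against 0.944% of all tested genes higher and 1.22% lower.

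The remaining genes that were lower by the naming rule came from unlike groups. Ypel3, a growth-suppressing target of p53, was at 27.0, 32.3, 25.9 and 25.4 units in MR and 45.5, 41.8, 36.1, 44.4 and 42.4 in Sham (log2 difference −0.59, SE 0.14). Ddit4l2 was at 13.4, 13.3, 17.9 and 13.4 units in MR and 22.0 to 25.5 in Sham. Doc2g was at 19.4, 24.9, 24.9 and 27.9 units in MR and 55.8, 35.9, 30.5, 53.0 and 47.3 in Sham. Oard1, which removes ADP-ribose from proteins, was at 5.59 to 6.03 units in MR and 7.45 to 10.1 in Sham, with an SD of only 0.203 among the MR libraries. Rasd2, a small GTPase, was at 5.49 to 8.35 units in MR and 8.51 to 17.1 in Sham, so that MR library 3 and Sham library 2 nearly met. Penk, proenkephalin, named after its values were seen, was at 35.3, 54.6, 61.5 and 48.3 units in MR and 57.7 to 266 in Sham, with MR library 4 above Sham library 3.

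Stard10, a lipid transfer protein on the list of atrial markers, was at 7.14, 8.35, 12.9 and 10.3 units in MR and 17.1, 15.7, 15.8, 23.4 and 14.7 in Sham (log2 difference −0.79, SE 0.19). Sham library 4 was the highest in Stard10 and also in Myl7, the atrial myosin light chain, at 14.3 units against 0.828 to 1.95 in the other Sham libraries and 0.531 to 2.45 in MR. All 9 tested atrial markers were below 0, with a median of −0.41, and without MR library 1 it was −0.17. Sham library 4 also held the pacemaker channel Hcn4 at 7.20 units, with Sham library 5 at 4.5 and the remaining 7 libraries at 0.338 to 2.36. Haemoglobin genes were highest there too, with Hba2 at 648 units against 5.52 to 25.7 in the other Sham libraries. The median of the red blood cell markers, −0.29, became 0.18 without that library. Of the 8 tested markers of the conduction system and valve 3 were above 0, the median was −0.12, and 1 member was separated in each direction. Over all tested genes 0.944% were separated and higher and 1.22% separated and lower. Prg4, the lubricin gene, was higher, at 4.69 to 6.37 units in MR and 2.34 to 4.64 in Sham. Tbx3, a factor of the conduction system, was lower, at 3.40 to 4.84 units in MR and 5.20 to 8.34 in Sham, and its range in Sham did not hinge on library 4.

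The mesothelial and epicardial markers rested on MR library 4. The median of the 7 tested was 0.57, and it was 0.16 without that library, 0.30 without MR library 3 and 1.01 without MR library 1. Some of the 7, Krt18 among them, passed the filter only through MR, and over the 5 members whose Sham libraries alone would have passed the median was 0.39. Its keratin values were 11.7 units for Krt8 and 6.04 for Krt18, against 0.808 to 2.62 and 0.17 to 1.39 in the other MR libraries and 0.552 to 1.88 and 0.0921 to 0.499 in Sham.

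**Figure D4:**
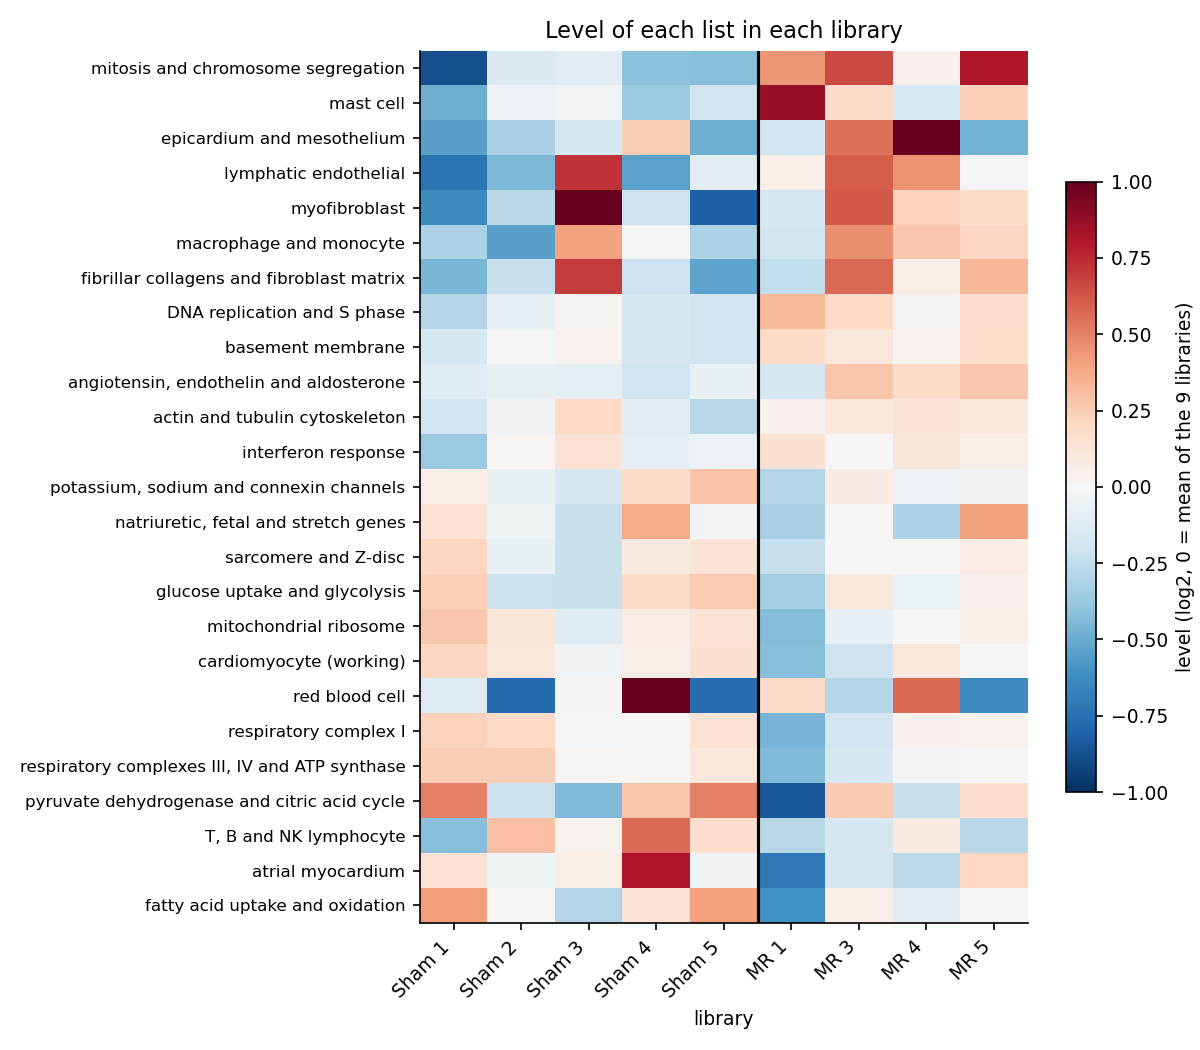
Level of the same 25 lists (rows) in each of the 5 Sham and 4 MR libraries (columns). It is the mean over members of log2(value + 1) minus the mean of that gene over the 9 libraries. The library's median of that quantity over all tested genes was subtracted. The colours end at −1 and 1. The mitosis row is above 0 in all 4 MR libraries and below 0 in all 5 Sham libraries, MR library 1 is the lowest in the rows of mitochondrial genes, and Sham library 3 is the highest in the fibrillar collagen row.

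Sampled 10, 20 and 40 weeks after MR, Mki67 and Kif22 had lower means than in the Sham libraries of 2 weeks. These comparisons share the 5 Sham libraries, differ from them in time, and use tables scaled separately. Mki67 was at 22.1 ± 7.83 units (SD, n = 4) after 2 weeks of MR, at 3.71 ± 1.06 (SD, n = 5) after 10, 3.06 ± 0.535 (SD, n = 5) after 20 and 2.48 ± 0.477 (SD, n = 5) after 40, with Sham at 7.88, 7.66, 7.46 and 7.52 units in the respective tables. Kif22 was at 9.68, 1.53, 1.05 and 0.719 units after 2, 10, 20 and 40 weeks of MR, with Sham at 2.95 to 3.12. Myh7 went the other way, with 5471 units after 2 weeks, below Sham at 9615, and 12764, 14389 and 15270 after 10, 20 and 40 weeks, above Sham in each table.

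**Figure D5:**
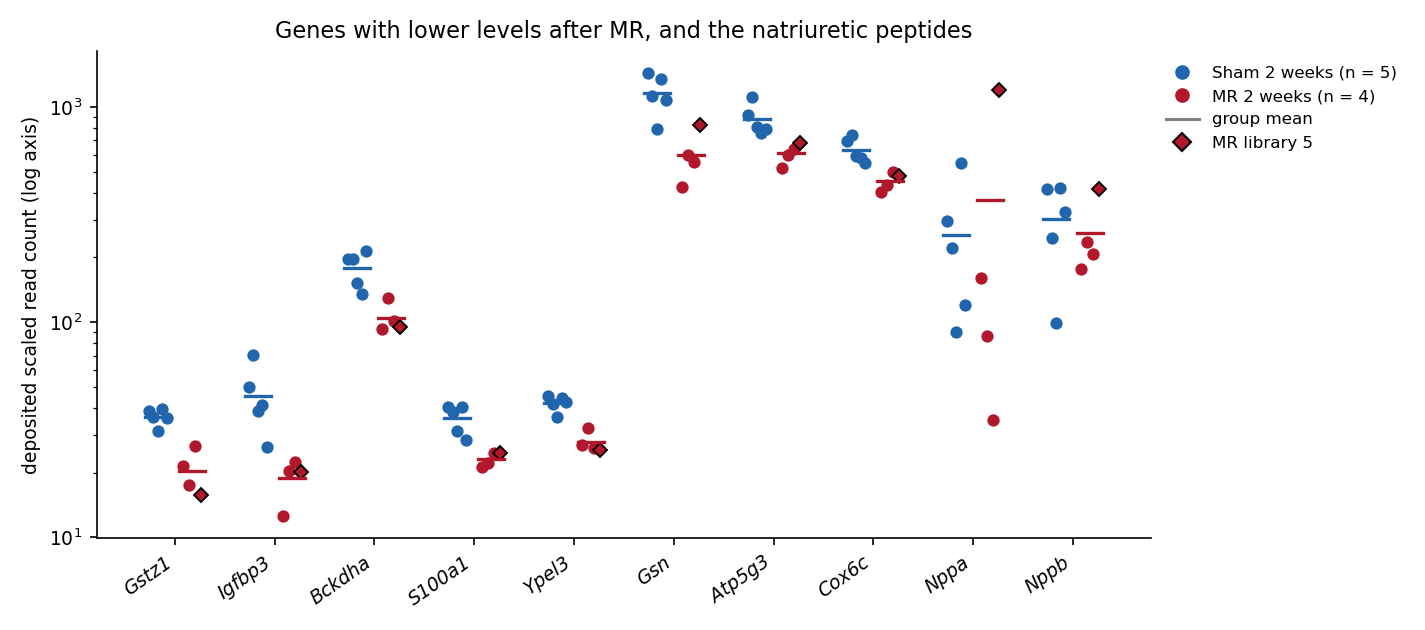
Scaled read count (log axis) of 8 genes that were lower after MR and of the natriuretic peptide genes Nppa and Nppb in each Sham and MR library at 2 weeks, with a bar at each group mean and a diamond for MR library 5. Gstz1, Igfbp3, Bckdha, S100a1, Ypel3, Atp5g3 and Cox6c are separated between the groups, Gsn overlaps in 1 pair of libraries, and Nppa and Nppb overlap widely.

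The other 35 lists had medians between −0.36 and 0.15 and together 6 separated members that were higher and 10 that were lower, counting a gene once for each list that holds it. Over all tested genes 0.944% were separated and higher and 1.22% separated and lower, so these counts are not read as a result about the lists. The median of 8 of them changed sign under the median-ratio scaling.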

How the data were processed

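Total RNA of snap-frozen rat myocardium was extracted with the miRNeasy kit and sequenced on an Illumina platform, per the labels' protocols. The submitters' processing notes name Partek and the genome build rn6; for the aligner and the counting settings the sources used here give nothing. The deposited values are a signal that the authors made from read counts: within a library 97.4 to 98.0% of values up to 200 reads were whole multiples of 1 step within 0.1 reads, so whole reads were recovered. Every listed gene had at least 1 read in each library and no mitochondrial-chromosome gene was listed.

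The 9 libraries of 2 weeks were tested with limma 3.58.1 (R 4.3.3, empirical Bayes with trend, two-sided) on log2(value + 1), for genes with a mean of at least 1 unit, with Benjamini-Hochberg adjustment over all 10173 genes and a threshold of 0.05. edgeR 4.0.16 (quasi-likelihood) and DESeq2 1.42.0 on recovered reads, other scalings, pseudocounts, filters, library weights, a replicate block and leaving out each library were alternatives. The fits were also run on simulated counts with known changes, the same spread setting for every gene and no library that stood apart. Those runs do not show how the fits behave where libraries stand apart, as here. Named genes are the 10 separated genes with the lowest limma p in each direction (mean at or above 4.63 units, locus identifiers left out), a fixed panel, up to 4 members of each list with the lowest p, and the 5 genes farthest from their group in a library that stood apart. Genes named otherwise are marked, and a few genes the rule names are not reported here. The members and lists were chosen with earlier results of these data known. Of the 10433 symbols, 10341 matched the reference gene table.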

Additional observations from a re-analysis of the deposited data

Results flagged for a closer look

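Of 244 groups of libraries checked (97 genes and 25 list levels, MR and Sham each), 24 held 1 library far from the others by Dixon's ratio, where chance gives about 5%. In Sham, library 3 stood high in Col1a1 (617 units, the next highest Sham library 168), Col3a1 (1197, next 506), Fn1 (124, next 23.8), Postn (79.9, next 12.7), Tnc (6.12, next 0.552), Timp1 (15.7, next 6.54) and Plod2 (16.1, next 10.5), and in the level of the fibrillar collagen list (0.70, next −0.21). Sham library 4 stood high in Stard10 (23.4, next 17.1), Myl7 (14.3, next 1.95) and the level of the atrial list (0.81, next 0.15). Sham library 1 stood high in E2f7 (0.885, next 0.569), Sham library 2 in Ddit4l2 (25.5, next 22.7) and Sham library 5 in Ppargc1b (18, next 8.98).

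In MR, library 4 stood high in Krt8 (11.7 units, the next highest MR library 2.62), Myl7 (2.45, next 0.638), Ddit4l2 (17.9, next 13.4) and Dhx58 (7.58, next 5.53), and low in Ccnd1 (91.4, next 124) and Tgfb1 (20.6, next 25.2). MR library 1 stood high in Cxcl14 (2.32, next 0.696) and in the clock gene Per2 (238.5, next 66.9), and low in Coro1a (3.18, next 7.82). MR library 5 stood high in Nppa (1196, next 160).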

How the results depend on the processing

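The count of 0 genes passing limma held under the other scalings, pseudocount and filters, in edgeR and with any 1 library left out, and the lowest adjusted p in these fits was 0.0607 to 0.795. It was 57 in DESeq2 (47 higher, 10 lower), 22 with library weights (20 higher, 2 lower) and 27 in a fit of all 24 libraries (26 higher, 1 lower). The labels do not say whether the library numbers pair the groups, and they were treated as not pairing them. The deviations of same-numbered MR and Sham libraries had correlations of −0.11, −0.20, −0.02 and 0.32, which cannot settle that. A fit with the number as a replicate block called 0 genes. Separated genes that were lower numbered 76 instead of 124 under median-ratio scaling. Of 1791 alternative values for 97 genes, 1712 kept their direction and side of the threshold, 53 passed it and 26, of 8 genes, changed sign. Nppa became 0.61 in edgeR and 0.62 in DESeq2, Ankrd1 0.012 with library weights and Pdk4 0.033 with the replicate block. Ryr2 became 0.033 in edgeR, 0.045 in DESeq2, 0.067 under median-ratio scaling, 0.054 under TMM and 0.083 with all 24 libraries. With 1 library left out, the ranges that crossed 0 were −1.38 to 0.30 for Nppa, −0.49 to 0.029 for Nppb, −0.14 to 0.49 for Acta1, −0.33 to 0.022 for Ankrd1, −0.13 to 0.11 for Ryr2, −0.0021 to 0.20 for Tgfb1, −0.021 to 0.37 for Igf1 and −0.42 to 0.14 for Pdk4. The median of the mitosis list was −0.00089 over its 5 genes with a mean of 10 or more and 1.34 in edgeR and in DESeq2. The angiotensin list had −0.10 with that filter and −0.012 to 0.30 with 1 library left out, and the red blood cell list −0.44 to 0.18. The cause was not tested. At 17 to 24.4 reads per unit, genes near the filter rest on few reads, and a difference in them that misses the threshold does not show that they were equal.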
